A study of Homo sapiens with 24 samples.

Results

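Mucins and the enzyme that branches their glycans were followed in HCT116, a human colorectal carcinoma cell line grown in DMEM with glucose. The genes were chosen by symbol from a list of 10, and 5 of the 10 had a row in the deposited table of scores, out of 18172 genes tested in all. These were GCNT3, MUC1, MUC2, MUC5AC and MUC13. The transcript that the array names for MUC5AC matched no RefSeq transcript of that gene, unlike those of the other members. Its row therefore rests on the array's symbol. GCNT1, MUC20, TFF1, TFF2 and TFF3 were not analysed here, so no trefoil factor could be described. Transcripts were measured on 24 Illumina expression arrays in 8 groups of 3, which the labels call biological replicates. Cells transfected with siACL, which depletes ATP citrate lyase, or with the control siMock received no butyrate or 0.5, 2 or 5 mM of it over 3 days. All groups share the cell line, the transfection and the medium, and the study asked how the response to butyrate depends on dose and on ATP citrate lyase. The list was made with results of these data known: GCNT3 was already known as one of the larger falls with butyrate in siMock. The siMock dose differences of the members are therefore given as a description, without p-values and supporting nothing. For GCNT3 the same holds of every comparison that uses siMock arrays. The siACL dose differences come from the other 12 arrays.

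Mucins are large glycoproteins that coat epithelia. MUC2 and MUC5AC are secreted and form gels, MUC2 being the main mucin of colonic goblet cells and MUC5AC that of the stomach surface and airway. MUC1 and MUC13 stay anchored in the apical membrane. Their protein backbones carry chains of O-linked sugars, begun by GalNAc transferases, branched by core 2 enzymes such as GCNT3, and capped with fucose, sialic acid or sulfate. Butyrate is a fermentation product of gut bacteria that colonocytes oxidise and that inhibits histone deacetylases. ATP citrate lyase supplies cytosolic acetyl-CoA.

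GCNT3 and MUC1 were the members that moved with butyrate, and the sequences before their starts are shown because they differ in composition. Each line gives the 250 bases upstream of the start in RefSeq (GRCh38.p14), 5′ to 3′ on the gene's strand, with matches to 4 motifs in capitals. Promoters of 4 of the 5 genes were matched by symbol.
GCNT3, chr15:59611533-59611782, plus strand: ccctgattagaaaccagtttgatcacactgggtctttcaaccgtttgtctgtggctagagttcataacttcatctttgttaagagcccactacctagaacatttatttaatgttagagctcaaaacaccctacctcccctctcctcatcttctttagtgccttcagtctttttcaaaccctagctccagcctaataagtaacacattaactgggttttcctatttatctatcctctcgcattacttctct
MUC1, chr1:155192916-155193165, minus strand: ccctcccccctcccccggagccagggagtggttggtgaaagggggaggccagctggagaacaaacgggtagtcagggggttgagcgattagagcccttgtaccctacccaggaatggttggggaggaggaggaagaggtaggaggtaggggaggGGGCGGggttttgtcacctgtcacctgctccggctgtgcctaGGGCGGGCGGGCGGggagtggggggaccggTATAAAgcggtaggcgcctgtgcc
The motifs searched on both strands, overlaps counted, were the GC box GGGCGG, the TATA box TATAAA, the CCAAT box CCAAT and TGANTCA. The last is a loose form of the AP-1 site that allows any base in the middle. All 4 are given with their shares of windows. These motifs occur in 42.6%, 10.7%, 32.0% and 6.6% of 35116 RefSeq promoter windows of the same length. The MUC1 window held 4 GC boxes, 3 of them overlapping, that begin 96, 54, 50 and 46 bases before the start, and 1 TATA box that begins 24 bases before it. RefSeq lists another MUC1 start nearby, whose window holds the same boxes at 102, 60, 56 and 52 bases and at 30 bases and has 12 CpG. The window shown had a GC content of 66.0% and held 11 CpG dinucleotides, the median of all windows. The GCNT3 window held none of the 4 motifs, had a GC content of 40.4% and held 2 CpG. Of the other members, the MUC2 window held 1 CCAAT box and 1 match to the loose AP-1 pattern, which reads TGAATCA. The MUC13 window held 1 match to that pattern, which reads TGAGTCA. These matches describe letters only.

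Each deposited value is a normal score, which turns the rank of a gene on its array into the matching point of the normal distribution, with the median gene at 0. The percentile is the same rank as a percent of the 20747 entries, counted from the lowest. No fold change can be given on either scale, and a shift common to the whole array cannot be measured. In bulk RNA, fewer cells that express a gene and less of its RNA per cell cannot be told apart. Differences are those of mean scores ± standard error from limma over all 24 arrays, and a gene is called where p, adjusted over all genes tested by the Benjamini-Hochberg method, is under 0.05. The score of ACLY, the gene targeted by siACL, was lower in each siACL group than in the siMock group of the same dose. It lay at 1.17 to 1.21 in untreated siACL, against 1.498 to 1.534 in untreated siMock, and at 0.67 to 0.70 in siACL at 5 mM, against 1.28 to 1.34 in siMock at 5 mM. The epithelial markers EPCAM, CDH1, KRT8, KRT19 and CLDN7 averaged the 87.2 to 98.6 percentile, and KRT18 the 59.0 percentile. Arrays of one group correlated at r = 0.917 to 0.948 over all entries.

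All 5 members ranked low in these cells. Their mean scores over the 24 arrays were -1.73 for GCNT3, -0.91 for MUC1, -1.05 for MUC2, -0.87 for MUC5AC and -0.93 for MUC13, which put every one of them below the first quartile of genes tested. Only GCNT3 ever passed the middle of an array, reaching the 60.0 percentile, while MUC1 reached the 48.6, MUC2 the 38.7, MUC5AC the 36.1 and MUC13 the 37.7 percentile. Low-ranked genes were less precise, with a median residual SD of 0.416 below that quartile and 0.0333 above the third. The residual SD was 0.34 for GCNT3, 0.19 for MUC1, 0.50 for MUC2, 0.41 for MUC5AC and 0.39 for MUC13. Whether a low-ranked member was above the array's background is unknown, since signal over background was not analysed here.

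GCNT3, a core 2 branching enzyme found mainly in mucin-secreting tissues, lay near the bottom of the array from 2 mM butyrate in siACL and from 0.5 mM in siMock. How the arms compare is a description only, since the siMock values of GCNT3 were known when it was listed. Its scores in siACL were 0.21, 0.25 and 0.24 untreated, -0.42, -0.42 and -0.67 at 0.5 mM, -2.23, -2.96 and -1.999 at 2 mM, and -2.60, -1.92 and -2.93 at 5 mM. In siMock they were -0.34, -0.40 and -0.22 untreated, -2.07, -2.77 and -2.74 at 0.5 mM, -2.42, -3.02 and -2.65 at 2 mM, and -3.27, -3.36 and -2.73 at 5 mM. The siACL arrays at 0.5 mM lay below the untreated siACL arrays but far above the 2 mM arrays, whereas every siMock array with butyrate lay below every untreated one. As percentiles, siACL averaged 59.2 ± 0.9 untreated, 30.9 ± 4.9 at 0.5 mM, 1.24 ± 1.06 at 2 mM and 1.12 ± 1.39 at 5 mM (SD, n = 3 each). The siMock averages were 37.5 ± 3.5, 0.84 ± 0.94, 0.43 ± 0.32 and 0.135 ± 0.155 at the same doses. On the siMock arrays at 5 mM GCNT3 held ranks 11, 8 and 65 counted from the lowest of 20747.

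**Figure D1:**
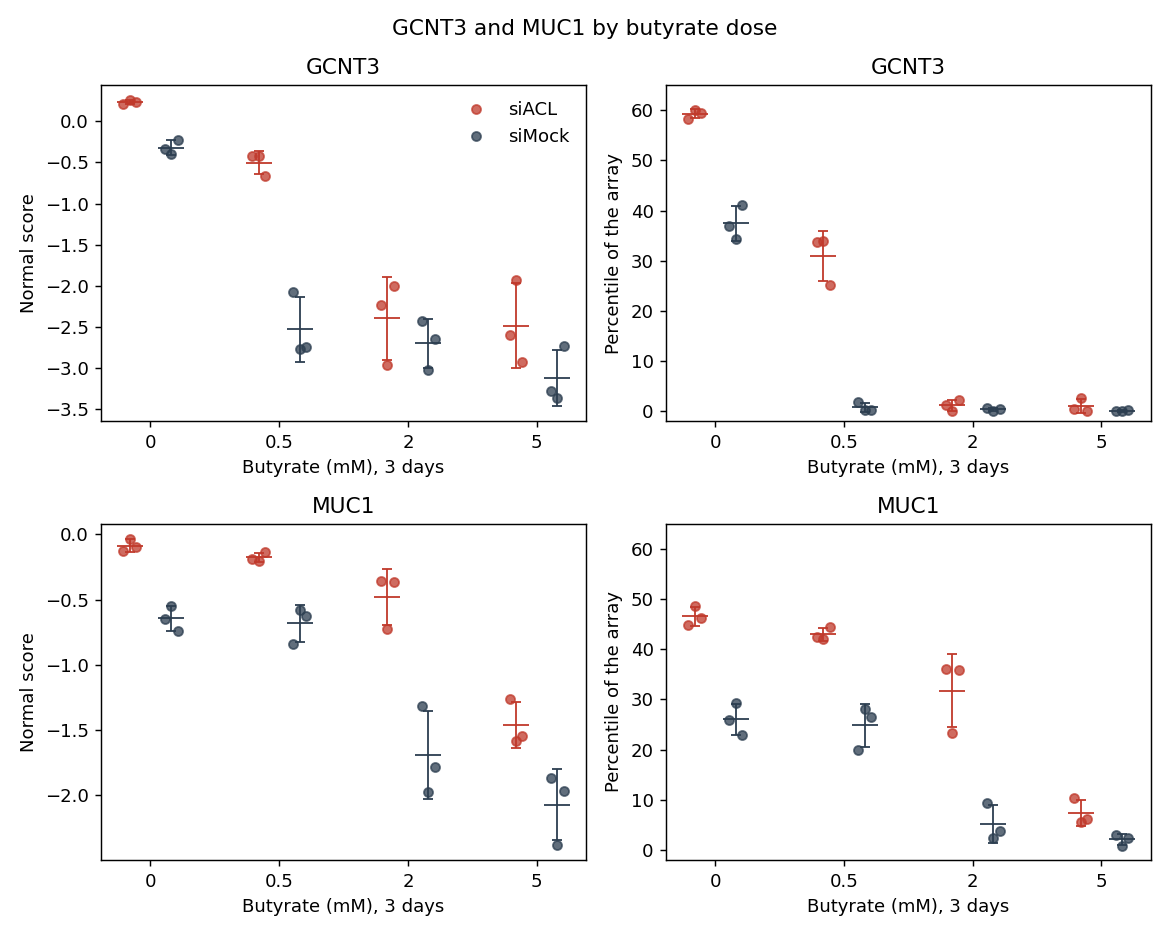
Normal score (left) and percentile of the array (right) of GCNT3 and MUC1 against butyrate dose in mM, with 1 point per array and the mean ± SD of 3 arrays for siACL (red) and siMock (dark). GCNT3 at 0.5 mM averaged the 30.9 percentile in siACL and the 0.84 percentile in siMock, and both arms lay below the 3 percentile at 2 and 5 mM, while MUC1 at 2 mM averaged the 31.8 percentile in siACL and the 5.2 percentile in siMock.

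In siACL, GCNT3 fell by 2.63 ± 0.27 at 2 mM against untreated siACL (adjusted p = 7.96e-07, limma) and by 2.72 ± 0.27 at 5 mM (adjusted p = 1.53e-07). At 0.5 mM its difference was -0.74 ± 0.27 (adjusted p = 0.118), with no overlap between the arrays, as held for 28.3% of all genes in that comparison (41.4% at 2 mM and 55.8% at 5 mM). On the percentile scale that difference was -28.3 ± 1.8 and passed (adjusted p = 1.24e-08), as it did in a fit of those 6 arrays alone (adjusted p = 0.0351). The percentile fit pools its spread over all 8 groups, and the SD was 4.9 in siACL at 0.5 mM but 0.155 in siMock at 5 mM. The score fit pools in the same way, with score SDs of 0.023 and 0.14 in siACL at 0 and 0.5 mM but 0.51 at 5 mM. The p-values of both fits over all arrays therefore do not measure the spread of the compared groups alone. Of all genes tested 7.24% were called in siACL at 0.5 mM, 26.5% at 2 mM and 45.2% at 5 mM, and of the 5 members 0, 1 and 2 were called. In siMock the differences of GCNT3 were -2.21 ± 0.27, -2.38 ± 0.27 and -2.80 ± 0.27 at 0.5, 2 and 5 mM. The siMock dose comparisons share their untreated arrays, and so do those of siACL. In these siMock comparisons 22.1%, 37.9% and 50.8% of all genes passed the threshold at 0.5, 2 and 5 mM, and 35.5%, 45.8% and 55.9% had arrays without overlap. Of the members 1, 2 and 2 passed, from which nothing is read, since these values were known when the list was made.

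Set against siMock at the same dose, the score difference of GCNT3 was 0.55 ± 0.27 without butyrate, 2.03 ± 0.27 at 0.5 mM, 0.30 ± 0.27 at 2 mM and 0.64 ± 0.27 at 5 mM. These values rest in part on the siMock arrays on which GCNT3 was already known to be low with butyrate, and they are given without a test. The arrays of the arms did not overlap without butyrate, at the 58.3 to 60.0 percentile in siACL and the 34.4 to 41.2 percentile in siMock. At 0.5 mM they did not overlap either, at the 25.2 to 33.9 percentile in siACL and the 0.28 to 1.92 percentile in siMock. Of all genes 27.3% untreated and 36.8% at 0.5 mM had arrays of the arms without overlap. At 2 and 5 mM the arrays of the arms overlapped.

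The siACL change minus the siMock change is called the interaction here. On scores GCNT3 had values of 1.47 ± 0.38, -0.25 ± 0.38 and 0.08 ± 0.38 at 0.5, 2 and 5 mM, given as a description for the same reason. Without any 1 array of the groups compared it lay between 1.35 and 1.70 at 0.5 mM. On the percentile scale it was 8.29 ± 2.58, -21.0 ± 2.6 and -20.8 ± 2.6 at the same doses, where siACL started higher and both arms ended near 0. Which arm changed more at 2 and 5 mM therefore depends on the scale. Over all genes 3.1%, 6.19% and 8.85% of interactions were called at 0.5, 2 and 5 mM.

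MUC1, a membrane mucin whose cytoplasmic tail takes part in signalling, was higher in siACL than in siMock at every dose, and lower with butyrate at higher doses. Its scores in siACL were -0.13, -0.04 and -0.10 untreated, -0.19, -0.20 and -0.14 at 0.5 mM, -0.35, -0.73 and -0.36 at 2 mM, and -1.26, -1.58 and -1.54 at 5 mM. In siMock they were -0.64, -0.55 and -0.74 untreated, -0.84, -0.58 and -0.63 at 0.5 mM, -1.31, -1.97 and -1.78 at 2 mM, and -1.87, -2.38 and -1.97 at 5 mM. At no dose did the arrays of the arms overlap, as was so for 27.3%, 36.8%, 33.4% and 31.6% of all genes at 0, 0.5, 2 and 5 mM, and 1 of the 3 siACL arrays at 2 mM lay among the untreated siMock arrays.

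The difference of MUC1 between siACL and siMock was 1.21 ± 0.15 at 2 mM (adjusted p = 2.86e-05, limma, with 19.1% of all genes called there). It stayed called under all 13 alternatives, with an adjusted p of up to 0.0487. It was 0.56 ± 0.15 without butyrate (adjusted p = 0.0378, 6.31% of all genes called), 0.51 ± 0.15 at 0.5 mM (adjusted p = 0.029, 17.7% called) and 0.61 ± 0.15 at 5 mM (adjusted p = 0.0123, 13.7% called). The untreated call ended without any 1 of its 6 arrays. That at 0.5 mM ended without any 1 of its 6 arrays except siMock 0.5 mM replicate 2, and that at 5 mM without siACL 5 mM replicate 1 or siMock 5 mM replicate 2. The sign was positive in each of these fits. In a fit of the compared arrays alone the calls untreated and at 5 mM ended (adjusted p = 0.0626 and 0.133). With a trend and robust prior those untreated and at 0.5 mM did (adjusted p = 0.112 and 0.0984), and on percentiles that at 5 mM (5.28, adjusted p = 0.299).

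In siACL, MUC1 fell by 1.37 ± 0.15 at 5 mM (adjusted p = 7.24e-07), while its differences at 0.5 and 2 mM were -0.09 ± 0.15 (adjusted p = 0.862) and -0.39 ± 0.15 (adjusted p = 0.0678). The 2 mM difference passed with array weights (adjusted p = 0.033) and on the percentile scale, at -14.8 ± 2.9 (adjusted p = 0.00101). The percentile fit pools its spread over all 8 groups, and the SD of MUC1 was 7.3 in siACL at 2 mM but 1.1 in siMock at 5 mM. The score fit pools likewise, with score SDs of MUC1 from 0.033 in siACL at 0.5 mM to 0.34 in siMock at 2 mM. In siMock the differences were -0.04 ± 0.15, -1.05 ± 0.15 and -1.43 ± 0.15 at 0.5, 2 and 5 mM. The interaction was -0.05 ± 0.22 (adjusted p = 0.958), 0.65 ± 0.22 (adjusted p = 0.0887) and 0.05 ± 0.22 (adjusted p = 0.931) at the 3 doses. It passed at 2 mM without siMock 2 mM replicate 1 (adjusted p = 0.0166), and at 5 mM on the percentile scale with the opposite sign (-15.2 ± 4.2, adjusted p = 0.0272).

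MUC2, MUC5AC and MUC13 showed no difference past the threshold in any of the 13 comparisons, and their arrays spread widely within groups. MUC2 scores ran from -2.05 to -0.29 over the 12 siACL arrays and from -2.08 to -0.42 over the 12 siMock arrays. In siACL at 2 mM alone its 3 arrays were at -2.05, -0.72 and -0.29, a spread as wide as that over all siACL arrays. Its mean was -0.78 ± 0.36 at 5 mM and -1.28 ± 0.36 untreated in siACL, and -1.57 ± 0.69 at 5 mM and -0.64 ± 0.34 untreated in siMock (SD, n = 3 each). Untreated, its siACL arrays at -1.69, -1.06 and -1.10 lay just below the siMock arrays at -0.42, -1.03 and -0.47 (-0.64 ± 0.39, adjusted p = 0.389). Arrays of the arms were without overlap for 27.3% of all genes in that comparison.

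The gel-forming mucin gene MUC2 thus had differences at 5 mM of 0.50 ± 0.39 in siACL (adjusted p = 0.335) and -0.93 ± 0.39 in siMock. Their interaction of 1.43 ± 0.55 did not pass (adjusted p = 0.132), although it did without siMock 5 mM replicate 3 (1.82, adjusted p = 0.0445). That array was at -0.79 and the others of its group at -2.08 and -1.84. MUC5AC scores ran from -1.80 to -0.54 in siACL and from -1.40 to -0.35 in siMock, and the largest of its differences was -0.78 ± 0.46 in the interaction at 5 mM (adjusted p = 0.365). MUC13, a membrane mucin of the intestinal surface, ran from -1.76 to -0.38 in siACL and from -1.53 to -0.31 in siMock. Its arrays in siACL at 5 mM lay below those of untreated siACL (-0.68 ± 0.31, adjusted p = 0.085), as arrays without overlap did for 55.8% of all genes in that comparison. At 0.5 mM its siACL difference was -0.75 ± 0.31 (adjusted p = 0.187), and it passed when 1 array was left out, siACL 0.5 mM replicate 2.

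**Figure D2:**
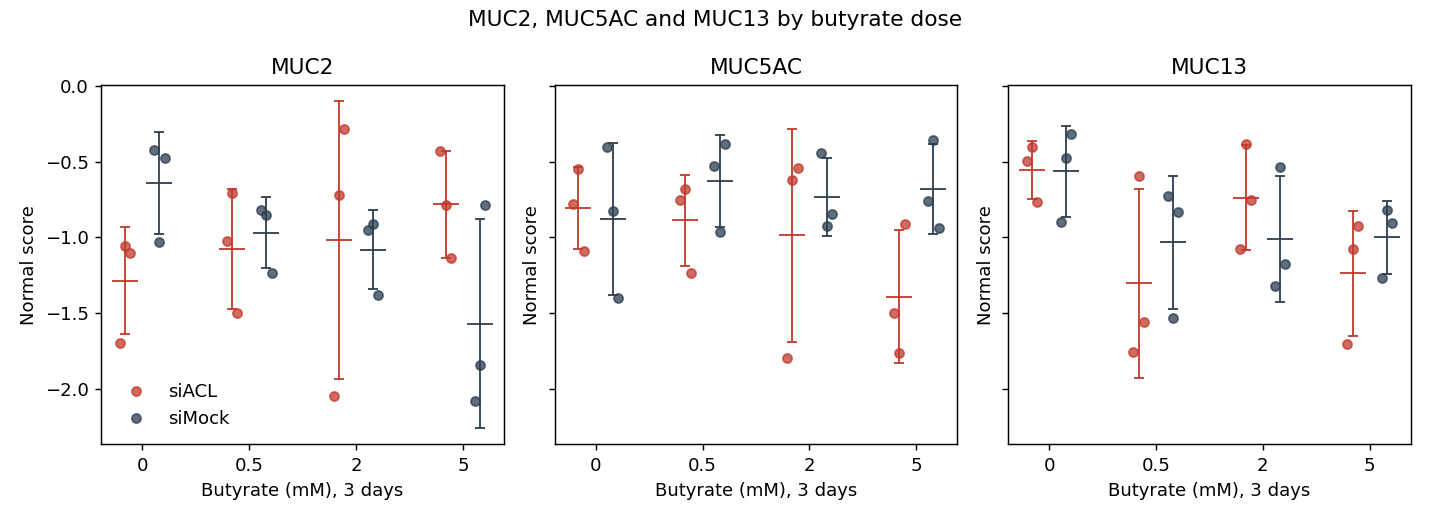
Normal score of MUC2, MUC5AC and MUC13 against butyrate dose in mM, with 1 point per array and the mean ± SD of 3 arrays for siACL (red) and siMock (dark). Arrays of one group spread by up to 1.76 for MUC2, 1.26 for MUC5AC and 1.17 for MUC13, and none of the 3 genes was called in any comparison.

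Ordered by mean score, the 8 groups of GCNT3 ran from untreated siACL (0.23) through untreated siMock (-0.32) and siACL at 0.5 mM (-0.50) to siACL at 2 mM (-2.40) and 5 mM (-2.48) and siMock at 0.5 mM (-2.53), 2 mM (-2.70) and 5 mM (-3.12). The first 4 groups of that order were separated from each other, and the neighbours among the last 5 overlapped. MUC1 ran from siACL at 0, 0.5 and 2 mM (-0.09, -0.18 and -0.48) through siMock at 0 and 0.5 mM (-0.64 and -0.68) to siACL at 5 mM (-1.46) and siMock at 2 and 5 mM (-1.69 and -2.07). For MUC1, siACL at 2 mM and untreated siMock overlapped, as did untreated siMock and siMock at 0.5 mM, and neighbours among the last 3 groups. The siMock arrays at 0.5 mM lay above those of siACL at 5 mM. For MUC2, MUC5AC and MUC13 every neighbour in the order overlapped the next.

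**Figure D3:**
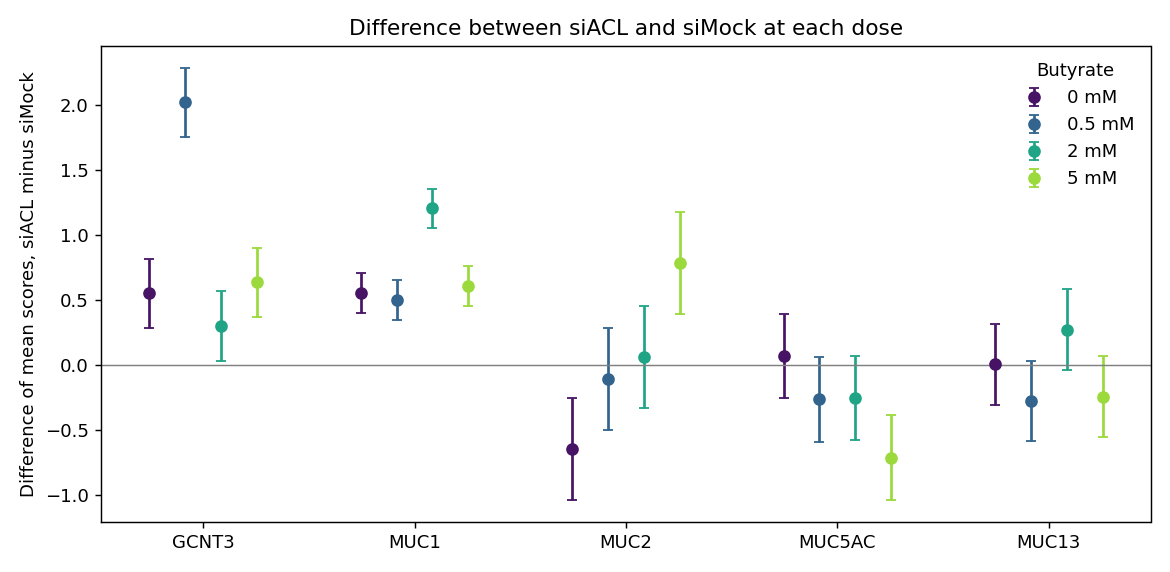
Difference of mean scores, siACL minus siMock, for the 5 genes at 0, 0.5, 2 and 5 mM butyrate, with the standard error from limma (3 arrays per group). GCNT3 stood at 2.03 at 0.5 mM and MUC1 at 1.21 at 2 mM, and the differences of MUC2, MUC5AC and MUC13 lay between -0.71 and 0.79.

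Over the 24 arrays GCNT3 and MUC1 had a Pearson correlation of 0.75, and 1505 genes were more like GCNT3 than MUC1 was. All arrays share the dose series, and over 24 arrays in 8 groups these correlations describe the pattern. Correlations of MUC2, MUC5AC and MUC13 with GCNT3 were 0.16, -0.05 and 0.26. The 5 genes most like GCNT3 among all tested were GLDN (0.95), DIMT1L, now DIMT1 (0.95), MTO1 (0.94), LOC650215 (0.94) and SLC7A5 (0.94). SLC7A5 encodes a large neutral amino acid transporter, DIMT1 a ribosomal RNA methyltransferase and MTO1 a mitochondrial tRNA modification enzyme.

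Other genes of mucin biology were read from lists written with earlier results of these data known. The adjusted p-values of list genes, here and below and in both arms, therefore describe these data and are no independent support. Of 6 other mucin genes measured, 2 rose and 1 fell in siACL at 5 mM against untreated siACL, and 1 rose and 2 fell in siMock. Their median differences were 0.10 and 0.39, beside -0.02 and -0.01 for all genes tested, of which 22.7% rose and 22.6% fell in siACL and 25.6% rose and 25.2% fell in siMock. In siACL the small mucin-like gene MUCL1 rose by 0.91 ± 0.29 (adjusted p = 0.015, limma) and the membrane mucin gene MUC4 by 0.42 ± 0.15 (adjusted p = 0.0273), while OVGP1, the oviductal glycoprotein gene, fell by 0.10 ± 0.04 (adjusted p = 0.0368). The siMock differences of MUCL1 and MUC4 were 0.69 ± 0.29 (adjusted p = 0.0542) and 0.33 ± 0.15 (adjusted p = 0.0763). In siMock the membrane mucin gene MUC16 rose by 0.79 ± 0.11 (adjusted p = 7.97e-06), the gastric gel-forming mucin gene MUC6 fell by 0.46 ± 0.17 (adjusted p = 0.0283) and OVGP1 fell by 0.10 ± 0.04 (adjusted p = 0.0463). MUC16 was also higher in untreated siACL than in untreated siMock (0.47 ± 0.11, adjusted p = 0.0144), and its interaction at 5 mM was -0.54 ± 0.16 (adjusted p = 0.0354). Its siACL difference at 5 mM was 0.24 ± 0.11 (adjusted p = 0.0845). MUC6, which lies beside MUC2 and MUC5AC in RefSeq, had a difference of -0.15 ± 0.17 in siACL at 5 mM (adjusted p = 0.507). Of the 6 measured genes listed as lying beside the mucin and trefoil clusters, MUC6 among them, 3 rose in siACL at 5 mM, and 3 rose and 2 fell in siMock. TOLLIP rose by 0.88 ± 0.19 in siACL and 0.67 ± 0.19 in siMock, ABCG1 by 0.56 ± 0.11 and 0.73 ± 0.11, and AP2A2 by 0.27 ± 0.05 and 0.32 ± 0.05. SLC37A1 fell by 0.18 ± 0.07 in siMock, and its siACL difference was -0.12 ± 0.07 (adjusted p = 0.205).

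Of 12 GalNAc transferases measured, which begin O-glycans, 4 rose and 2 fell in siACL at 5 mM (median 0.07), and 6 rose and 2 fell in siMock (median 0.17). Called in either direction were 45.2% of all genes in siACL and 50.8% in siMock. GALNT5 fell by 1.43 ± 0.31 in siACL (adjusted p = 0.000781) and by 0.82 ± 0.31 in siMock (adjusted p = 0.0332). GALNT14 fell by 0.87 ± 0.28 (adjusted p = 0.016) and by 1.06 ± 0.28 (adjusted p = 0.00372) in the same comparisons. GALNT4 rose by 0.78 ± 0.14 in siACL and 0.83 ± 0.14 in siMock, and GALNT10 by 0.45 ± 0.05 and 0.56 ± 0.05. Between siACL and siMock at 5 mM 1 of the 12 was called, GALNT11 (-0.10 ± 0.03, adjusted p = 0.0397), and without butyrate none was, by limma. Of all genes 13.7% and 6.31% were called in these comparisons.

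Of 13 enzymes that extend and cap these glycans, 4 rose and 3 fell in siACL at 5 mM, and 4 rose and 2 fell in siMock (medians 0.05 and 0.04), beside the same shares of all genes. FUT2, the fucosyltransferase that sets secretor status, fell by 1.53 ± 0.29 in siACL (adjusted p = 0.000262) and by 2.02 ± 0.29 in siMock (adjusted p = 1.11e-05). CHST4, a GlcNAc sulfotransferase gene, fell by 1.62 ± 0.44 in siACL (adjusted p = 0.00517), and its siMock difference was -0.90 ± 0.44 (adjusted p = 0.0982). The sialyltransferase genes ST6GALNAC3 and ST3GAL2 rose in siACL by 0.68 ± 0.11 and 0.49 ± 0.06, and in siMock by 0.72 ± 0.11 and 0.31 ± 0.06. ST6GALNAC2 fell by 0.17 ± 0.06 in siACL and by 0.39 ± 0.06 in siMock. ST3GAL2 was lower in untreated siACL than in untreated siMock (-0.28 ± 0.06, adjusted p = 0.0103).

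**Figure D4:**
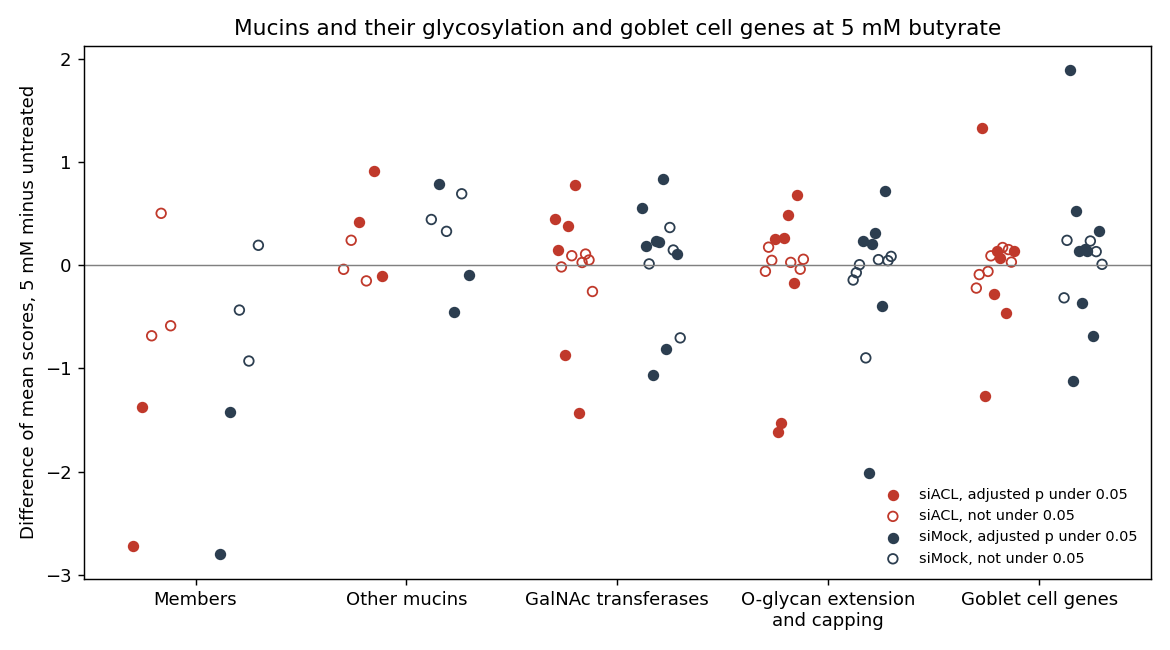
Difference of mean scores, 5 mM minus untreated, in siACL (red) and siMock (dark) for the 5 members and for lists of 6 other mucins, 12 GalNAc transferases, 13 enzymes that extend and cap O-glycans and 14 goblet cell genes. Filled points have an adjusted p under 0.05 (limma), and each list held genes that differed in either direction, while the lowest points are GCNT3 at -2.72 in siACL and -2.80 in siMock.

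Of 25 goblet cell genes listed 14 had a row. SPDEF, ATOH1, CLCA1, ZG16, SPINK4, ITLN1 and REG4 were among those without one, so the list covers goblet cells only in part. Of the 14 measured, 4 rose and 3 fell in siACL at 5 mM, and 6 rose and 3 fell in siMock (medians 0.05 and 0.14), beside the 45.2% and 50.8% of all genes called. BCAS1 rose by 1.34 ± 0.27 in siACL (adjusted p = 0.000466) and by 1.89 ± 0.27 in siMock (adjusted p = 9.85e-06). CREB3L4, a membrane-bound transcription factor gene, fell by 1.27 ± 0.33 (adjusted p = 0.00395) and by 1.13 ± 0.33 (adjusted p = 0.00795). MLPH, which encodes a vesicle transport adaptor, fell by 0.46 ± 0.02 in siACL and 0.69 ± 0.02 in siMock, and its interaction was 0.23 ± 0.03 (adjusted p = 0.000172). At 5 mM MLPH and the vesicle docking gene SYTL4 were higher in siACL than in siMock, by 0.20 ± 0.02 (adjusted p = 9.88e-06) and 0.12 ± 0.03 (adjusted p = 0.00992). The forkhead factor gene FOXA3 fell by 0.28 ± 0.06 in siACL (adjusted p = 0.000866) and by 0.37 ± 0.06 in siMock (adjusted p = 5.26e-05). FCGBP, a gene of a protein secreted with mucus, rose by 0.53 ± 0.13 in siMock (adjusted p = 0.00217), and its difference in siACL was -0.06 ± 0.13 (adjusted p = 0.756). In untreated siACL against untreated siMock, 2 of the 14 were higher and 0 lower by limma, beside 3.7% and 2.61% of all genes. The 2 were FCGBP (0.45 ± 0.13, adjusted p = 0.046) and SYTL2, of the same family as SYTL4 (0.31 ± 0.07, adjusted p = 0.0112). AGR2, a disulfide isomerase gene needed for MUC2 in mouse, averaged the 12.8 percentile and differed by -0.22 ± 0.24 in siACL at 5 mM (adjusted p = 0.501) and by -0.32 ± 0.24 in siMock (adjusted p = 0.298). Of 10 absorptive enterocyte genes listed 4 had a row, ALPI, KRT20, ANPEP and DPP4, and none of these was called in any of the 13 comparisons by limma. SI, VIL1, FABP1, FABP2, SLC26A3 and CA1 had no row.

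Of the epithelial markers, EPCAM fell by 0.41 ± 0.04 in siACL at 5 mM and by 0.53 ± 0.04 in siMock, CLDN7 by 0.60 ± 0.03 and 0.44 ± 0.03, and KRT18 by 0.17 ± 0.05 and 0.22 ± 0.05. CDH1 rose by 0.12 ± 0.03 in siACL (adjusted p = 0.00364), and KRT19 rose by 0.29 ± 0.05 in siMock (adjusted p = 6.53e-05). Among stromal and endothelial markers the pattern was mixed. The endothelial marker PECAM1 averaged the 12.6 percentile and the stromal markers COL1A2 and COL3A1 the 13.9 and 12.8 percentile, and none of these 3 was called at 5 mM in either arm, by limma. COL1A1 and VWF rose at 5 mM in both arms, by 0.52 and 1.54 in siACL and by 0.47 and 1.74 in siMock. The part of these marker genes in the results above was not tested.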

How the data were processed

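Transcripts of HCT116 cells were measured on 24 Illumina arrays from total RNA labelled as biotinylated cRNA, per the labels' protocols. The deposited values are a score per gene and array, from -3.90 to 3.90. Their processing by the authors is not given in the sources used here. Each array matched the quantiles of a normal distribution at the gene ranks to within 0.000915. A second deposited table was used for gene symbols only. Its 48 columns of signal and detection p are tied to no sample by the labels and were not used, so signal over background is unknown. Of 20747 entries the 18172 with a symbol were tested and 2575 without one left out. The annotation listed 34592 entries, among them GCNT1, MUC20, TFF1, TFF2 and TFF3, which had no score. How the scored entries were chosen is not given in the sources used here. No further filter was applied here.

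Groups were compared with limma 3.58.1 in R 4.3.3, fitting the 8 group means to all 24 arrays together (16 residual and 1.05 prior degrees of freedom), and Benjamini-Hochberg adjustment within each of 13 comparisons. The fit was tested on simulated data. The members and lists were chosen with earlier results of these data known. The text names every member, ACLY, the 5 genes most like GCNT3, and the up to 4 largest called genes of each list (all where 5 or fewer were called) at 5 mM in each arm, between the arms untreated and at 5 mM, and in the interaction at 5 mM. AGR2, the enterocyte genes and the other values of named genes were added after they were seen, and of the marker lists only some are given. Culture dates and slides were not known, and the p-values measure the spread between replicates the labels call biological. In the main fit that spread is pooled over all 8 groups. The number of arrays limits the precision. Alternatives were other fits, thresholds, entries and scales, and leaving out each array. Replicate numbers are shared by the groups, but arrays of one number did not deviate together (correlations of -0.04 to 0.03 over 84 pairs).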

Additional observations from a re-analysis of the deposited data

Results flagged for a closer look

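The change of GCNT3 with 0.5 mM butyrate was -0.74 in siACL and -2.21 in siMock, which gave an interaction of 1.47 ± 0.38. It was picked out because the interaction passed the threshold, but its siMock change was known when GCNT3 was listed, so the test is no independent support. The pass was lost in 16 of 19 alternatives.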

How the results depend on the processing

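The difference of MUC1 between the arms at 2 mM kept its call in all 13 alternatives, with an adjusted p of up to 0.0487 (limma). Counts of members that use siMock arrays include GCNT3, which was chosen on siMock values, and support nothing about it. Mean scores of all 5 members lie below the median gene, so the filter on low values left none and gave no value. For siACL against siMock the count of called members was 1 untreated, 2 at 0.5 mM and 1 at 5 mM. It was 0, 1 and 0 at an adjusted p under 0.01. With only the arrays compared it was 0 untreated and 0 at 5 mM, with a trend and robust prior 0 untreated and 1 at 0.5 mM, and on percentile ranks 2 untreated and 0 at 5 mM. For siACL doses it was 1 in place of 0 at 0.5 mM with only the arrays compared and on percentile ranks, and 2 in place of 1 at 2 mM with array weights and on percentile ranks. The interaction at 0.5 mM had 1 called member, and 0 at the stricter threshold, with all entries, on percentile ranks, with the trend and robust prior and with the replicate block. Percentile ranks called 1 interaction at 2 mM and 2 at 5 mM in place of 0. Apart from this 1 interaction the replicate block changed no call of a member. Replicate numbers did not pair the arrays, and 7 of 24 correlated best with their own number. Without 1 array the counts ran from 0 to 0 untreated, 1 to 2 at 0.5 mM and 0 to 1 at 5 mM between the arms, from 0 to 1 for siACL at 0.5 mM, 2 to 3 for siMock at 5 mM (with MUC2), and from 0 to 1 in each interaction. In each case other than the percentile scale, the array subset and the stricter threshold, the cause was not tested.

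Signs turned on percentile ranks for the 5 mM interactions of GCNT3 (-20.8 in place of 0.08) and MUC1 (-15.2 in place of 0.05). They turned for uncalled differences between arms of MUC13 untreated (-0.0091 with array weights and -0.0402 on percentile ranks) and MUC2 at 2 mM (-0.144 with array weights). Without 1 array these and other uncalled differences crossed 0. For GCNT3 the interaction ran from -0.449 to 0.0309 at 2 mM and -0.196 to 0.308 at 5 mM. For MUC1 it ran from -0.101 to 0.155 at 5 mM, and the siMock difference at 0.5 mM from -0.0889 to 0.041. Between the arms MUC13 untreated ran from -0.157 to 0.134, MUC2 from -0.291 to 0.104 at 0.5 mM and -0.303 to 0.578 at 2 mM, and MUC5AC from -0.193 to 0.309 untreated and -0.474 to 0.155 at 2 mM. In siACL MUC2 ran from -0.0993 to 0.782 at 2 mM, and MUC5AC from -0.224 to 0.091 at 0.5 mM and -0.405 to 0.224 at 2 mM. In siMock MUC5AC ran from -0.0135 to 0.488, -0.124 to 0.378 and -0.0705 to 0.431 at 0.5, 2 and 5 mM, and its interaction at 2 mM from -0.56 to 0.084.

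Without 1 array, the share of all genes called between the arms was 3.8 to 5.35% untreated and 12.8 to 14% at 0.5 mM. Between the arms at 5 mM it was 9.65 to 11.7%, in siACL at 0.5 mM 4.79 to 5.25% and in siMock at 5 mM 47.7 to 48.1%. In the interactions it was 1.95 to 2.77%, 4.34 to 5.54% and 7.13 to 7.93% at 0.5, 2 and 5 mM. With only the arrays compared, the share of all genes called at 0.5 mM was 1.45% in place of 7.24% in siACL and 8.36% in place of 22.1% in siMock. Between the arms it was 0.149%, 8.52%, 4.21% and 2.27% in place of 6.31%, 17.7%, 19.1% and 13.7%, and in the interactions 1.29%, 2.77% and 5.64% in place of 3.1%, 6.19% and 8.85%. At an adjusted p under 0.01 these 3 shares were 1.01%, 2.55% and 4.4%, those between the arms 2.59%, 9.73%, 11.2% and 6.9%, and those at 0.5 mM 3.61% in siACL, where array weights gave 11.4%, and 14.2% in siMock. On percentile ranks the shares were 6.59% between the arms untreated and 12.3% at 5 mM. In siACL they were 6.95% at 0.5 mM and 25.7% at 2 mM, and in the interactions 3.16%, 6.49% and 9.46%. The trend and robust prior gave 7.52% between the arms untreated, 19.3% at 0.5 mM and 4% in the interaction at 0.5 mM. In that interaction all entries gave 2.12% and the replicate block 2.88%. Array weights gave 28.7% in siACL at 2 mM.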
